A study of Macaca mulatta with 24 samples.

Results

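The genes described here are those of the endogenous opioid peptides and their receptors in the nucleus accumbens core (NAcc) of rhesus macaques. They were chosen by symbol, as PENK, PDYN, PNOC, OPRM1, OPRD1, OPRK1 and OPRL1, and all 7 were found among the 17208 gene symbols that had been measured. RNA-Seq had been carried out on 24 unrelated adult male Macaca mulatta, with 8 animals in each of 3 groups and 1 library from each animal. The LD* animals (labelled LD) were low and binge drinkers and the HD* animals were heavy drinkers (labelled HD, 4 animals) and very heavy drinkers (labelled VHD, 4 animals). Both groups had been induced to drink by a feeding schedule and then had open access to 4% ethanol beside water for 12 months, whereas controls went through the same procedures with water on both spouts and received maltose dextrin to match calories. Drinking was voluntary, so LD*, HD and VHD are categories of each animal's own drinking and were not assigned, unlike the controls. The study bases them on how much and how often an animal drank. Daily intake ran from 0.47 to 2.07 g/kg in LD* animals, from 2.74 to 3.09 g/kg in HD animals and from 3.09 to 3.78 g/kg in VHD animals. The tissue was a small circular dissection of the core taken at necropsy without imposed abstinence, so every library holds RNA of all cell types in that piece.

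Opioid peptides are cut from larger precursors. PENK encodes the precursor of the enkephalins, PDYN that of the dynorphins and PNOC that of nociceptin. The receptors are coupled to inhibitory G proteins. OPRM1 encodes the mu receptor and OPRD1 the delta receptor, which bind enkephalins, OPRK1 the kappa receptor, which binds dynorphins, and OPRL1 the nociceptin receptor. In the striatum, PENK is best known as a transcript of indirect pathway spiny projection neurons, which carry the dopamine receptor DRD2, and PDYN of direct pathway spiny projection neurons, which carry DRD1. Mu receptor agonists and antagonists alter ethanol drinking, and the kappa system is known for aversive effects in the NAcc.

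The deposited values were read as TPM, a transcript level per gene length scaled so that every animal has the same total. The tissue carried the transcripts of striatal projection neurons, since PPP1R1B, their defining marker, ranged from 304 to 3926 TPM. The sum of 8 markers of spiny projection neurons nevertheless ran from 475 to 8465 TPM between animals. Control 6 had the lowest sum, the highest sum of 6 oligodendrocyte markers (9138 TPM) and the highest sum of 5 astrocyte markers (7737 TPM), and its mean correlation with the other animals over well expressed genes was 0.877 against 0.933 to 0.967 for the rest. SLC17A7, a marker of cortical excitatory neurons, ranged from 0.866 to 722 TPM and reached 10 TPM in 11 animals, which were 3 controls, 4 LD*, 2 HD and 2 VHD animals. The levels of cell type markers therefore differed widely between tissue pieces within groups, and in such bulk RNA fewer cells of a type and less RNA per cell cannot be told apart.

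PENK was by far the most abundant of the members, at 2638 ± 1255 TPM over all animals (mean ± SD, n = 24), and ranked at place 18 among all 17208 genes. PDYN followed at 547 ± 246 TPM, and then OPRL1 at 51.2 ± 18.2 TPM, OPRK1 at 22.3 ± 12.0 TPM, PNOC at 15.1 ± 5.45 TPM, OPRM1 at 2.89 ± 1.46 TPM and OPRD1 at 2.08 ± 1.09 TPM. Every member had a mean of at least 1 TPM and was tested, and OPRM1 and OPRD1 were the members with a mean under 10 TPM. PENK exceeded PDYN in 24 of 24 animals, by 2.26 ± 0.34 on the log2 scale of TPM + 1. PDYN exceeded OPRL1 in 23 of 24 animals, control 6 being the exception, and OPRL1 exceeded OPRK1 in 24 of 24. Neighbours whose order varied most between animals were OPRK1 and PNOC, with OPRK1 higher in 15 of 24 animals (0.38 ± 0.99). Next came OPRM1 and OPRD1, with OPRM1 higher in 19 of 24 (0.33 ± 0.42). These are means and SDs of the differences within animals, and the order was not tested. The order thus placed the kappa and nociceptin receptors above the mu and delta receptors in transcript level. Like the rank of PENK, it rests on the reading of the values as TPM. POMC, the precursor of beta-endorphin, was present at 4.93 ± 3.17 TPM.

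The spread between animals differed greatly between the members. The highest value was 27.6 times the lowest for PDYN and 17.8 times for PENK, but 3.46 times for OPRL1 and 3.48 times for PNOC. Most of the width for the precursors lay in controls, in which PENK was lowest in control 6 (265 TPM) and control 8 (643 TPM) and PDYN was lowest in the same animals (35 and 167 TPM). The plot of levels by group shows these animals at the bottom of the peptide panels.

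**Figure D1:**
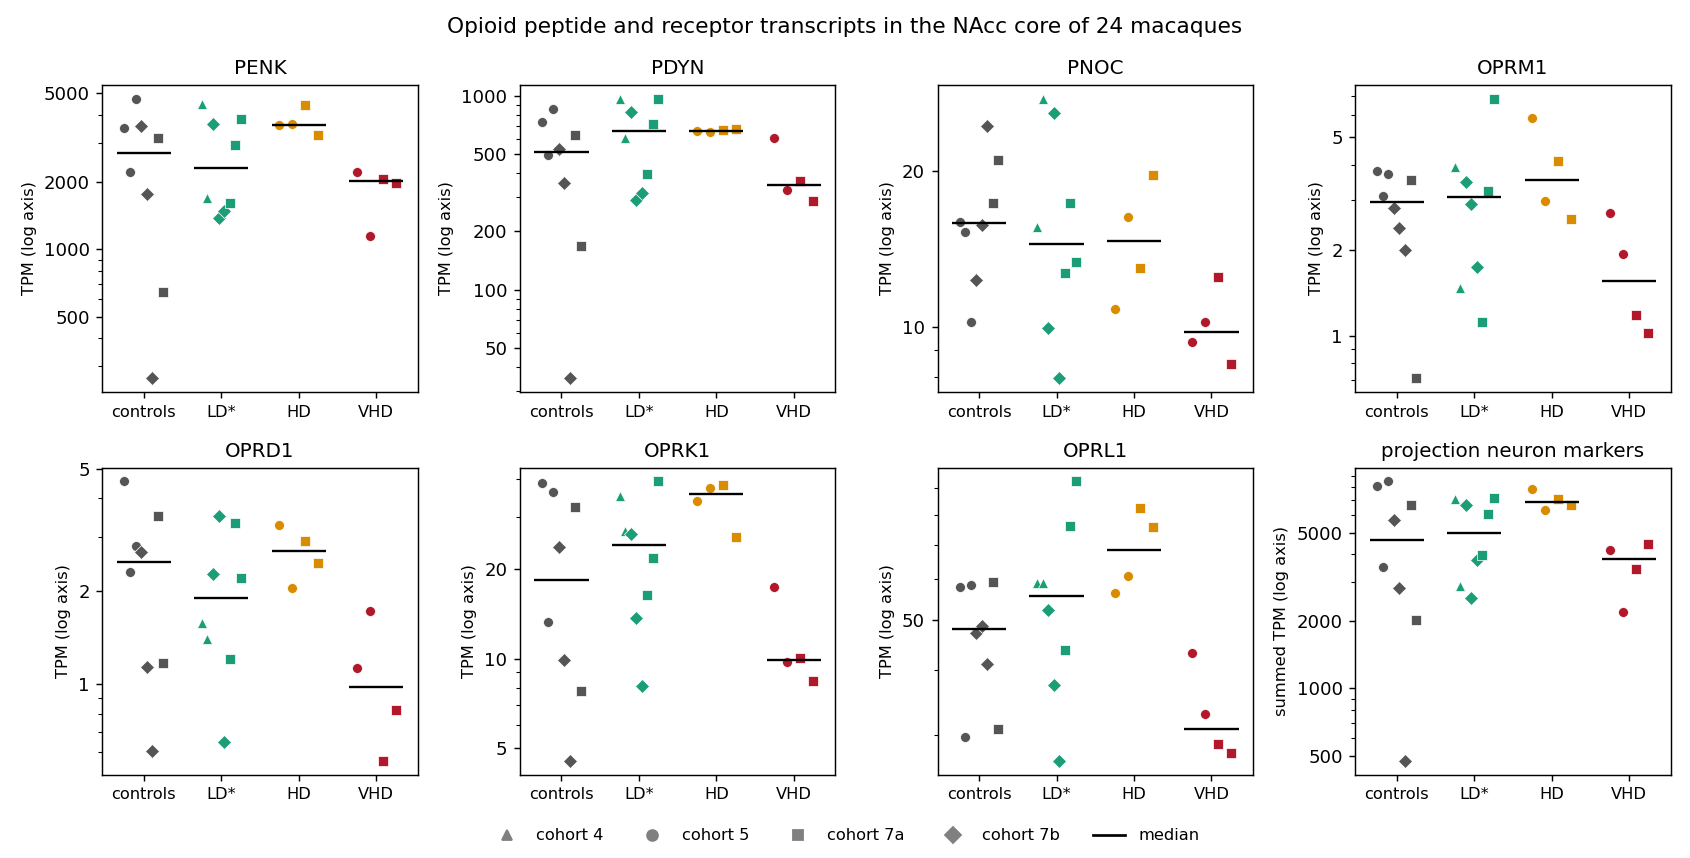
TPM on a log axis of each of the 7 genes, and the summed TPM of 8 projection neuron markers, in each of 24 animals (points, shaped by cohort) by drinking category, with the category's median as a line. Controls and LD* animals span most of the range of each gene, whereas the HD and VHD animals separate in PENK, PDYN, OPRD1, OPRK1, OPRL1 and the markers.

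The study's main question was whether chronic ethanol consumption altered expression in the NAcc core. No member passed an adjusted p under 0.05 in HD* animals against controls, in LD* animals against controls or in HD* against LD* animals (limma on log2(TPM + 1) with Benjamini-Hochberg adjustment over 13637 genes, n = 8 each). Nor did any other gene, so that 0.00% of genes were called in HD* animals against controls, 0.00% in LD* animals against controls and 0.00% in HD* against LD* animals. Under an unadjusted p of 0.05 lay 775 genes (5.68%), 387 genes (2.84%) and 147 genes (1.08%) of the 13637 in these comparisons, and 0 of the 7 members in each. In HD* animals against controls 54 of the 775 were higher, but 310 of 516 after rescaling the animals with trimmed means of M-values (TMM). The study's own count model (DESeq2) did call genes at an FDR under 0.05 in HD* animals against controls and in HD* against LD* animals. Its pathway analysis of HD* animals against controls also listed opioid signaling among the inhibited pathways. Counts were not used here, so the absence of calls belongs to this test on TPM and does not show that expression was unaltered.

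Among the peptide precursors, PENK had its lowest, median and highest values at 265, 2696 and 4718 TPM in controls, 1377, 2323 and 4473 TPM in LD* and 1151, 2736 and 4443 TPM in HD* animals. The groups overlapped over almost their whole range, and the difference between HD* animals and controls was 0.50 on the log2 scale (95% interval −0.45 to 1.44, adjusted p = 0.715). PDYN lay at 35, 515 and 858 TPM in controls, 291, 661 and 966 TPM in LD* and 289, 628 and 675 TPM in HD* animals. Its difference was 0.52 (−0.44 to 1.48, adjusted p = 0.715) for HD* animals against controls and 0.72 (−0.24 to 1.68, adjusted p = 1.00) for LD* animals against controls. PNOC lay at 10.2, 15.8 and 24.5 TPM in controls, 7.95, 14.5 and 27.6 TPM in LD* and 8.44, 11.6 and 19.7 TPM in HD* animals. It came nearest to the threshold of all members, with a difference of −0.38 (−0.83 to 0.07, adjusted p = 0.706) between HD* animals and controls, and still did not pass.

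For the receptors, OPRM1 had its lowest, median and highest values at 0.71, 2.96 and 3.82 TPM in controls, 1.11, 3.08 and 6.83 TPM in LD* and 1.02, 2.64 and 5.86 TPM in HD* animals. OPRD1 lay at 0.607, 2.49 and 4.54 TPM in controls, 0.649, 1.90 and 3.50 TPM in LD* and 0.564, 1.88 and 3.28 TPM in HD* animals. In each group the levels of both receptors spread over several-fold, and no group lay apart. OPRK1 lay at 4.55, 18.4 and 39.0 TPM in controls, 8.13, 24 and 39.3 TPM in LD* and 8.44, 21.5 and 38.3 TPM in HD* animals. OPRL1 lay at 29.7, 48.0 and 59.3 TPM in controls, 26.7, 55.6 and 92.7 TPM in LD* and 27.7, 49.7 and 82.2 TPM in HD* animals, so that drinkers of both groups reached levels above the highest control.

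Differences between HD* animals and controls on the log2 scale were −0.029 for OPRM1 (95% interval −0.58 to 0.52), −0.19 for OPRD1 (−0.73 to 0.34), 0.21 for OPRK1 (−0.65 to 1.06) and 0.059 for OPRL1 (−0.45 to 0.57). These intervals hold differences of either sign. The median difference of all genes in this comparison was −0.12, and TMM rescaling brought it to 0.00094 and moved OPRM1 to 0.061 and PNOC to −0.25. Control 6 carried much of the higher means of the precursors in drinkers, since without it the differences between HD* animals and controls were 0.10 for PENK and 0.048 for PDYN. The 8 projection neuron markers were likewise each higher in HD* animals than in controls, by a median of 0.44, and 0 of them passed. Between HD* and LD* animals the members' differences ran from −0.30 for PNOC to 0.12 for PENK.

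Cohort was not balanced over groups, and HD* animals shared a cohort with controls only in cohort 5 (3 controls and 4 HD* animals) and cohort 7a (2 controls, 3 LD* and 4 HD* animals). Tested with group in the model, 0.00% of genes passed for cohort after adjustment and 8.36% had an unadjusted p under 0.05, with 0 of the 7 members in either set. Within cohort 5 the differences between HD* animals and controls were −0.46 for PENK and −0.33 for PDYN, and within cohort 7a they were 0.96 for PENK and 0.52 for PDYN. The opposite signs did not pass a test of the difference between cohorts (limma interaction, adjusted p = 1.00 for PENK and PDYN). PNOC was lower in HD* animals in cohort 5 (−0.23) and in cohort 7a (−0.54).

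**Figure D2:**
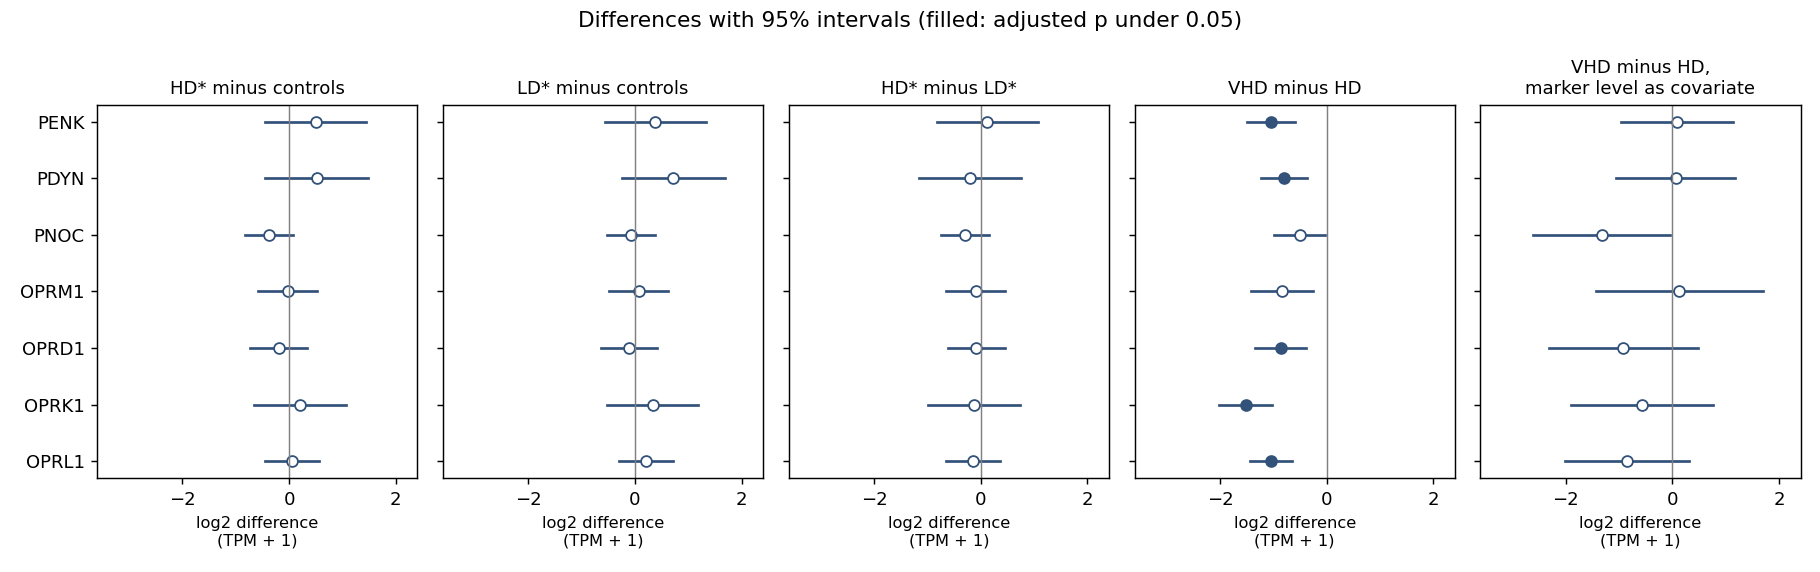
Difference between groups in log2(TPM + 1) for each member (points) with its 95% interval (lines), in 4 comparisons and in VHD against HD with the projection neuron marker level as a covariate. Filled points, which occur only in VHD against HD without the covariate, have an adjusted p under 0.05.

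Whether the members differed with the drinking category inside the HD* group was examined in its 4 HD and 4 VHD animals. The study had made this contrast too, and reported more genes higher in HD than in VHD animals. It found synaptic annotations among the former and translation annotations among those higher in VHD animals. Cohorts 5 and 7a each held a pair of either category. Transcripts of the peptides PENK and PDYN and of the receptors OPRK1, OPRL1 and OPRD1 were lower in VHD than in HD animals, by about 1.74 to 2.87 times on the scale of TPM + 1. Of the 7 members these 5 passed an adjusted p under 0.05 (limma on the 8 HD* animals), all of them lower, whereas 14.6% of all 13637 genes passed and 11.4% passed as lower. In the same 5 genes every VHD animal lay below every HD animal, which was the case for 17.9% of all genes. All 7 members had an unadjusted p under 0.05, beside 32.7% of all genes. The comparison was therefore one in which many genes differed, and lower levels were the more common direction (1556 of 1997 called genes lower and 441 higher, and 1065 of 2648 higher after TMM rescaling).

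PENK measured 3610, 3630, 4443 and 3253 TPM in the HD animals and 2219, 1151, 2071 and 1983 TPM in the VHD animals. The lowest HD animal thus stood well above the highest VHD animal, and the log2 difference was −1.04 (SE 0.21, adjusted p = 0.00969). PDYN measured 656, 649, 667 and 675 TPM in the HD animals and 606, 329, 364 and 289 TPM in the VHD animals. The HD animals were nearly alike in PDYN (662 ± 11.4 TPM), and the VHD animal with the highest daily intake, 3.78 g/kg, came close to them. Its log2 difference was −0.80 (SE 0.20, adjusted p = 0.0223). After TMM rescaling neither precursor passed, with log2 differences of −0.86 for PENK (adjusted p = 0.0891) and −0.62 for PDYN (adjusted p = 0.0713), while the median of all genes moved from −0.17 to −0.019.

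OPRK1 showed the largest difference among the members. It measured 33.7, 37.5, 38.3 and 25.6 TPM in the HD animals and 17.4, 9.76, 10.0 and 8.44 TPM in the VHD animals, a log2 difference of −1.52 (SE 0.23, adjusted p = 0.00435). OPRL1 measured 56.4, 60.7, 82.2 and 75.8 TPM in the HD animals and 43.1, 33.0, 28.8 and 27.7 TPM in the VHD animals, a log2 difference of −1.04 (SE 0.18, adjusted p = 0.00689). In both receptors the VHD animal of highest intake was again the nearest to the HD animals. OPRD1 measured 3.28, 2.04, 2.92 and 2.48 TPM in the HD animals and 1.13, 1.72, 0.564 and 0.821 TPM in the VHD animals, a log2 difference of −0.86 (SE 0.22, adjusted p = 0.0255). At such low levels the added 1 shrinks the difference, which was −1.34 for OPRD1 with 0.1 in its place. The calls of OPRD1 and PDYN were lost when any 1 of 5 of the 8 animals was left out. These 3 receptors kept their calls after TMM rescaling, with log2 differences of −1.35, −0.86 and −0.78 for OPRK1, OPRL1 and OPRD1.

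OPRM1 and PNOC did not pass. OPRM1 measured 5.86, 2.98, 4.11 and 2.58 TPM in the HD animals and 2.70, 1.95, 1.18 and 1.02 TPM in the VHD animals, so that the categories overlapped by a single animal on each side. Its log2 difference was −0.85 (SE 0.27, adjusted p = 0.0525), and with cohort as a covariate it passed (adjusted p = 0.0282). PNOC measured 10.8, 16.3, 13.0 and 19.7 TPM in the HD animals and 9.32, 10.2, 12.5 and 8.44 TPM in the VHD animals, with overlap and a log2 difference of −0.50 (SE 0.22, adjusted p = 0.132). Means of all 7 members were lower in VHD animals within cohort 5 (−0.41 for PNOC to −1.38 for OPRK1) and within cohort 7a (−0.59 for PNOC to −1.66 for OPRK1), with 2 animals of each category in each.

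In the VHD animals the PENK, PDYN, OPRK1 and OPRM1 values all lay within the range of the 8 controls, and controls 6 and 8 lay below every VHD animal in PENK, PDYN and OPRK1. For OPRL1, 3 of the 4 HD animals lay above the highest control (59.3 TPM) and 2 of the 4 VHD animals lay below the lowest (29.7 TPM). Below the lowest control lay also 2 of the 4 VHD animals in PNOC and 1 in OPRD1.

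Levels of cell type markers moved with the same contrast. The sum of the 8 spiny projection neuron markers was 6305 to 7863 TPM in HD and 2192 to 4429 TPM in VHD animals, and all 8 (PPP1R1B, BCL11B, FOXP1, PDE10A, ARPP21, RASD2 and ANO3 among them) fell at an adjusted p under 0.05, 6 of them after TMM rescaling. Of the direct pathway markers 3 of 6 passed as lower, including DRD1 (203 TPM in HD and 89.5 TPM in VHD animals), and of the indirect pathway markers 5 of 5, including DRD2 (356 and 169 TPM), which became 3 of 6 and 3 of 5 after TMM rescaling. The sum of 5 astrocyte markers was 1383 to 2556 TPM in HD and 3439 to 5989 TPM in VHD animals. All 5 were higher in VHD animals and 1 of them, GFAP, passed (2 after TMM rescaling). The sum of 6 microglia markers was 273 to 359 TPM in HD and 360 to 630 TPM in VHD animals. Of these 5 were higher in VHD animals, and AIF1, C1QA and C1QB passed (3 after TMM rescaling). Oligodendrocyte markers overlapped between the categories (2323 to 3951 and 2271 to 4813 TPM), although 1 of 6, MBP, passed as higher (0 after TMM rescaling), and of 6 interneuron markers, 5 cortical excitatory neuron markers and 3 endothelial markers 0 passed.

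With the mean level of the projection neuron markers as a covariate, a fit chosen after seeing the data, 0 of the 7 members and 0 of 13637 genes passed between VHD and HD animals (1273 genes had an unadjusted p under 0.05). The remaining log2 differences were 0.089 for PENK (SE 0.48), 0.061 for PDYN (SE 0.51) and 0.13 for OPRM1 (SE 0.71), and −0.57 for OPRK1 (SE 0.60), −0.85 for OPRL1 (SE 0.53), −0.92 for OPRD1 (SE 0.64) and −1.33 for PNOC (SE 0.59). Since the marker level did not overlap between the categories, the standard errors rose more than 2-fold for each member, and the part of the markers in the members' lower levels was not tested beyond this.

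Genes that make, cut or signal for opioid peptides were taken from lists chosen by function. In the 3 comparisons between controls, LD* and HD* animals, 0 of the 7 peptide processing, 5 peptide breakdown, 11 receptor signalling and 9 receptor regulation genes tested passed an adjusted p under 0.05, and 1 receptor signalling gene had an unadjusted p under 0.05 in each comparison with controls. The genes of these lists with the smallest p between HD* animals and controls were CPD, a carboxypeptidase (log2 difference −0.26, adjusted p = 0.724), DPP3, an enkephalin-degrading peptidase (−0.18, adjusted p = 0.706), GNAI3, an inhibitory G protein subunit (−0.32, adjusted p = 0.706), and RGS14, a regulator of G protein signalling (0.69, adjusted p = 0.706). Medians of the lists ran from −0.11 to 0.05 in that comparison, beside −0.12 for all genes.

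Between VHD and HD animals, where 11.4% of all genes passed as lower, 4 of 7 peptide processing genes did. They were PCSK2, a convertase that cuts the precursors (53.2 ± 16.5 TPM in VHD and 146 ± 7.07 TPM in HD animals, log2 difference −1.48, adjusted p = 0.00363), PCSK1, the other neuroendocrine convertase (−0.93, adjusted p = 0.0309), CPD (−0.89, adjusted p = 0.0328) and PAM, which amidates peptides (−0.86, adjusted p = 0.0309). The list's median was −0.86, beside −0.17 for all genes, and PCSK1 did not pass after TMM rescaling (adjusted p = 0.0842). With counts as small as 1 of 5, a list is not set apart from that share. Of the 5 peptide breakdown genes 1 passed as lower, with a list median of −0.20. It was MME or neprilysin, which degrades enkephalins, at 14.3 ± 4.24 TPM in HD and 3.44 ± 0.818 TPM in VHD animals (log2 difference −1.77, adjusted p = 0.00363).

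Among 11 receptor signalling genes 4 passed as lower, with a list median of −0.49. They were ADCY5, the main striatal adenylyl cyclase (450 ± 26.7 TPM in HD and 245 ± 51.4 TPM in VHD animals, log2 difference −0.90, adjusted p = 0.00641), GNAO1, the subunit of the G protein Go (−0.89, adjusted p = 0.00489), CACNA1B, an N-type calcium channel subunit (−0.81, adjusted p = 0.0351), and KCNJ9, a G protein-gated potassium channel subunit (−0.67, adjusted p = 0.0237). ADCY5 did not pass after TMM rescaling (adjusted p = 0.0555). Of 9 receptor regulation genes 2 passed as lower, RGS4 (142 ± 43.8 TPM in HD and 43.6 ± 13.7 TPM in VHD animals, log2 difference −1.70, adjusted p = 0.00435) and RGS9 (−0.98, adjusted p = 0.00686), both of which shorten G protein signals, while the list's median was 0.078 and 3 of its genes passed after TMM rescaling. POMC, alone among the peptide precursors, was higher in VHD animals, at 4.00 to 10.9 TPM against 1.29 to 5.57 TPM in HD animals (log2 difference 1.26, adjusted p = 0.0326). The sums of projection neuron, astrocyte and microglia markers given above also differed between these categories. Their relation to each of these genes was not examined, and their part was not tested.

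Ratios between members were taken within each animal, on the log2 scale of TPM + 1. The added 1 weighs on the ratio of OPRM1 to PENK, because OPRM1 lay between 0.71 and 6.83 TPM. The PDYN to PENK ratio of TPM had a median of 0.212 over all animals and ranged from 0.132 to 0.358. On the log2 scale this ratio averaged −2.38 ± 0.31 (SD) in controls, −2.05 ± 0.25 in LD* animals and −2.36 ± 0.36 in HD* animals, of which each had n = 8. LD* animals lay 0.34 above controls (two-sided exact permutation over 12870 assignments, p = 0.0241), which did not hold after adjustment over the 12 tests of 4 ratios (adjusted p = 0.289), and without control 6 the difference was 0.26 (exact permutation, p = 0.0507). The other 11 tests, of OPRK1 to PDYN, OPRM1 to PENK and OPRL1 to PNOC among them, had exact permutation p-values from 0.0597 to 0.909. For HD* animals against controls within cohorts 5 and 7a the 4 ratios had exact permutation p-values from 0.253 to 0.533.

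Between VHD and HD animals the ratio of the kappa receptor to its peptide precursor was the 1 ratio of 4 that did not overlap. On the log2 scale OPRK1 to PDYN averaged −4.99 ± 0.062 (SD) in the 4 VHD animals and −4.27 ± 0.28 in the 4 HD animals, a difference of −0.72 (exact permutation, p = 0.0286, the smallest that 70 assignments can give, and 0.114 adjusted over the 4 ratios). OPRL1 to PNOC differed by −0.53 (exact permutation, p = 0.0857), PDYN to PENK by 0.25 (exact permutation, p = 0.400) and OPRM1 to PENK by 0.20 (exact permutation, p = 0.714). With nothing added to TPM, OPRK1 to PDYN differed by −0.81 and OPRM1 to PENK by −0.17, so that the sign of the latter depended on the added 1. In controls the OPRK1 to PDYN ratio spread from −5.13 to −2.70, with control 6 the highest, so that the VHD animals lay inside the range of controls.

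**Figure D3:**
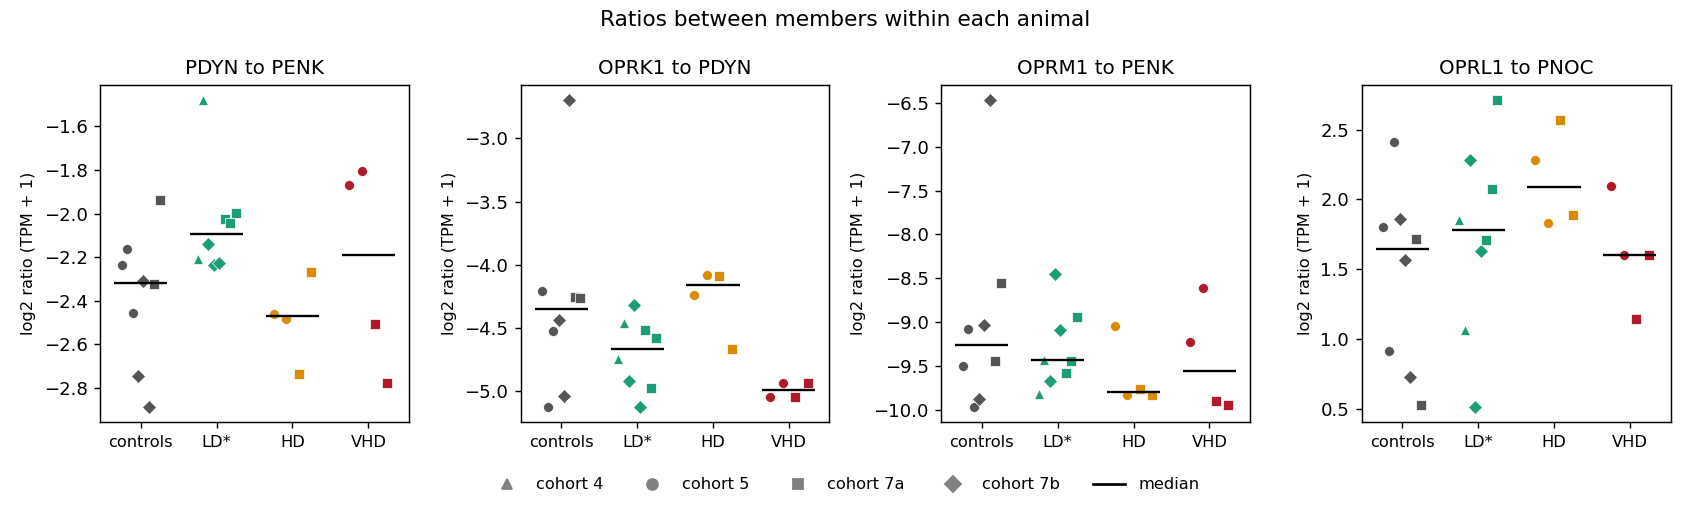
Log2 ratio of TPM + 1 between members within each animal (points, shaped by cohort) by drinking category, with medians as lines, for 4 ratios. OPRK1 to PDYN is lower in each of the 4 VHD animals than in each of the 4 HD animals, and control 6 stands apart as the highest animal in OPRK1 to PDYN and OPRM1 to PENK.

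Across the 24 animals the members other than PNOC varied together. All 15 pairs among these 6 genes correlated, with Pearson's r from 0.57 to 0.94 (permutation with 100000 resamples, adjusted over 21 pairs, p from 5.2e-05 to 0.0037). The share of pairs of other genes that correlate as closely was not examined, so this is not shown to be particular to the members. Genes outside the list also followed single members closely, as CANT1 did OPRL1 (rho = 0.98). The closest pairs were PENK and PDYN (r = 0.94, rho = 0.89), PENK and OPRK1 (r = 0.86, rho = 0.86), PDYN and OPRK1 (r = 0.85, rho = 0.88) and OPRK1 and OPRL1 (r = 0.81, rho = 0.82), each with the smallest p that these permutations can give (1e-05). Without the 2 animals farthest from the median, controls 6 and 8, r was 0.86, 0.84, 0.90 and 0.85 for these pairs. For these closest pairs r within cohorts was 0.96, 0.94, 0.89 and 0.96 in cohort 5 (n = 7) and 0.93, 0.84, 0.92 and 0.94 in cohort 7a (n = 9). In cohort 7b (n = 6) it was 0.99, 0.91, 0.87 and 0.51. Over all 15 pairs the lowest r within these cohorts was 0.25, for PDYN and OPRL1 in cohort 7b. Within groups the lowest was 0.21, for PDYN and OPRD1 in LD* animals.

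Over all animals none of the 6 pairs with PNOC passed, with r from −0.35 with PENK to 0.24 with OPRL1 (permutation, adjusted p from 0.119 to 0.936). The groups differed in sign, since in the 8 controls its r was negative with all 6 other members, from −0.87 with PENK to −0.43 with OPRL1, and in the 8 HD* animals positive with all 6, from 0.24 with OPRM1 to 0.68 with OPRL1. In the 8 LD* animals it ran from −0.23 to 0.50. These values within groups are a description, and the difference between groups was not tested. Its levels were highest in LD 2 (27.6 TPM), LD 4 (25.9 TPM) and control 6 (24.5 TPM), of which the LD* animals also had the high SLC17A7 levels of 212 and 722 TPM, while control 6 had 0.968 TPM. The correlation of PNOC with the cortical excitatory neuron marker level was r = 0.57 (rho = 0.39), beside r = −0.32 (rho = −0.19) with that of spiny projection neurons. Without controls 6 and 8 the latter r was −0.013. These values are given as a description over the animals.

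**Figure D4:**
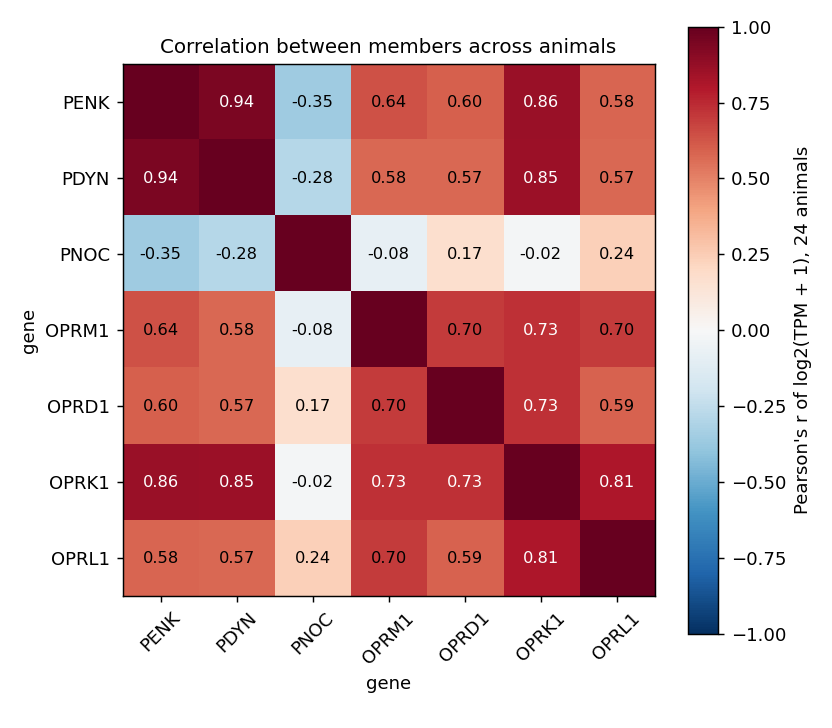
Pearson's r between members over 24 animals, from log2(TPM + 1), with blue for negative and red for positive values. The 6 genes other than PNOC form a block from 0.57 to 0.94, and the PNOC row runs from −0.35 to 0.24.

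The same 6 members followed the projection neuron marker level, taken as the mean centred log2(TPM + 1) of the 8 markers. How many of all genes follow this level, or that of the oligodendrocyte markers below, was not examined. The relations are therefore not shown to be particular to the members. Pearson's r was 0.96 for PENK, 0.94 for PDYN, 0.89 for OPRK1, 0.68 for OPRD1, 0.63 for OPRM1 and 0.59 for OPRL1 (permutation, adjusted p from 4.7e-05 to 0.0031 over 14 tests), and −0.32 for PNOC (adjusted p = 0.164). Spearman's rho was 0.89, 0.85, 0.90, 0.65, 0.82 and 0.70 for these 6, and without controls 6 and 8 r was 0.93, 0.84, 0.89, 0.66, 0.74 and 0.74. For each unit of marker level PENK changed by 0.95 and PDYN by 0.97 on the log2 scale, OPRK1 by 0.79, and OPRD1, OPRM1 and OPRL1 by 0.37, 0.35 and 0.31. The slopes of the low OPRD1 and OPRM1 depend on the value added to TPM before taking logs, and were 0.58 and 0.48 with 0.1 in place of 1, while those of PENK, PDYN and OPRL1 were 0.95, 0.97 and 0.32.

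The marker level had its widest gap, apart from control 6, between −0.11 and 0.43, with 12 animals on either side. Below it lay 4 controls, 4 LD* and all 4 VHD animals, and above it 4 controls, 4 LD* and all 4 HD animals. Below the gap r with the marker level was 0.94 for PENK and 0.95 for PDYN (0.82 and 0.74 without control 6), and above it 0.44 and 0.24. For OPRK1 it was 0.70 below (0.52 without control 6) and 0.72 above. The other receptors had lower values, which control 6 moved in either direction. Below the gap r was −0.053 for OPRL1, 0.041 for OPRM1 and 0.29 for OPRD1, and without control 6 it was 0.26, 0.36 and −0.083. Above the gap it was −0.078, 0.46 and 0.43. The 15 pairs among the members had a median r of 0.21 below the gap (0.38 without control 6) and 0.30 above it, so that both the relation to the markers and that among the members were weaker within these sets than over all animals for most genes.

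**Figure D5:**
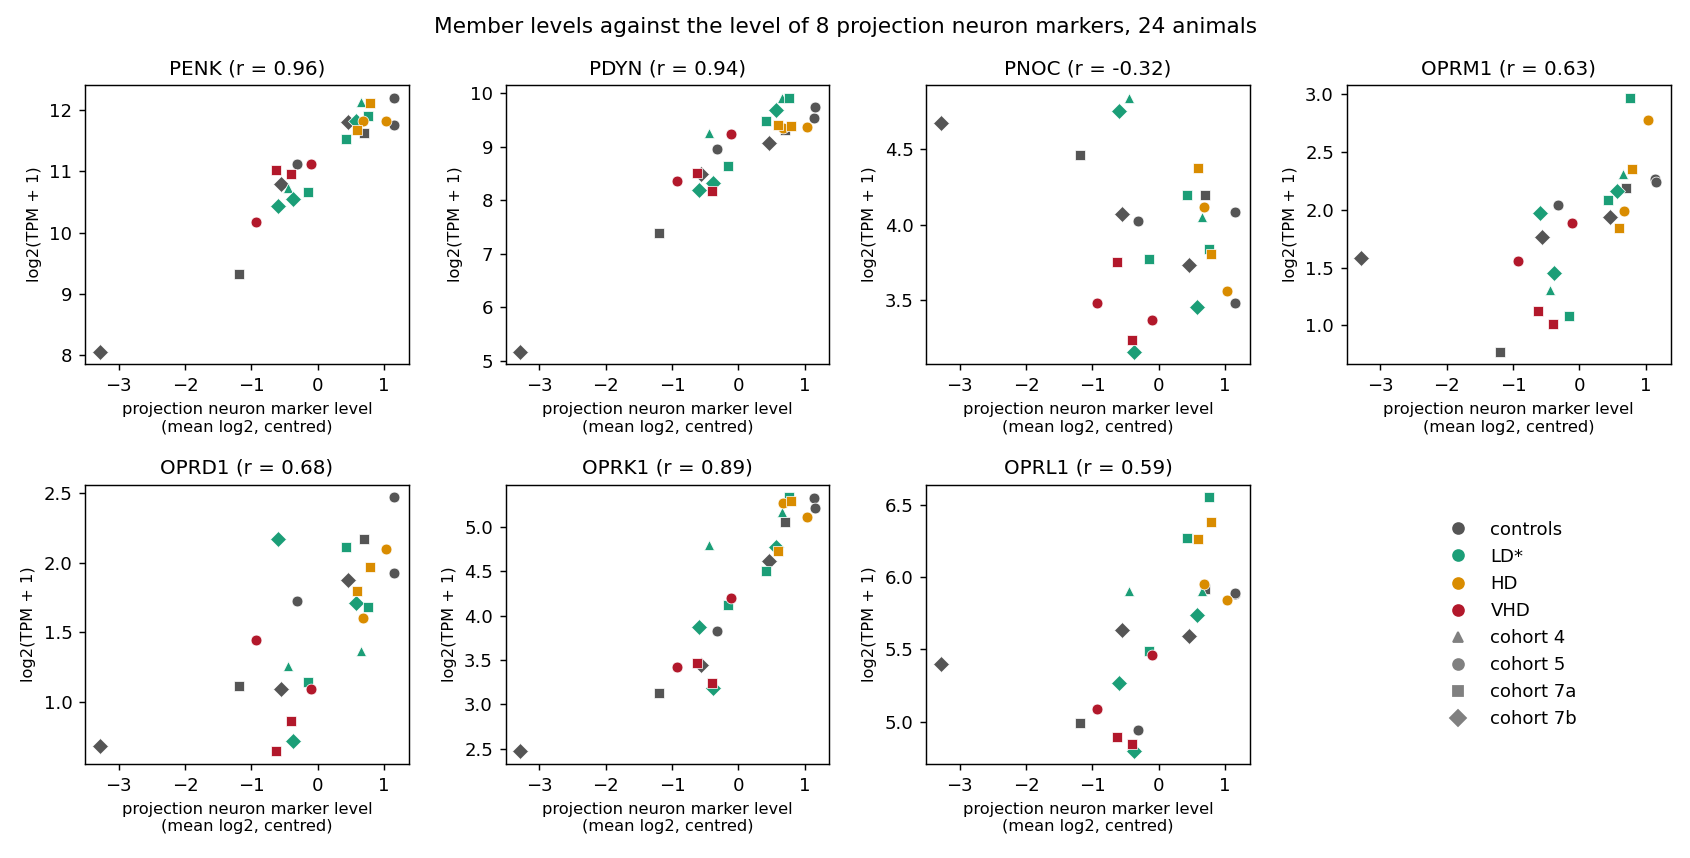
Log2(TPM + 1) of each member against the mean centred log2 level of 8 projection neuron markers in 24 animals, coloured by category and shaped by cohort, with Pearson's r above each panel. PENK, PDYN and OPRK1 climb with the marker level from control 6 at the far left (−3.28) to controls 1 and 3 at the right (1.15 each), and PNOC does not.

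The oligodendrocyte marker level went the other way. Its r was −0.64 with PDYN (permutation, adjusted p = 0.0032), −0.52 with PENK (adjusted p = 0.0163) and −0.52 with OPRK1 (adjusted p = 0.0155), and it did not pass for the other members. Without its 2 farthest animals, control 6 and LD 5, r fell to −0.32, −0.16 and −0.25, so these relations rest on those animals, and without control 6 alone none passed.

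Whether the balance of PENK to PDYN followed the balance of indirect to direct pathway markers was examined after seeing the data. The r between these log2 ratios was 0.17 over 24 animals (permutation, p = 0.413) and 0.47 without control 6 (permutation, p = 0.0246). It was 0.86 in cohort 5, 0.52 in cohort 7a and −0.57 in cohort 7b, whose 6 animals include control 6. PENK correlated with the indirect pathway markers at 0.97 and with the direct at 0.91, and PDYN at 0.95 with each.

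Daily ethanol intake was examined within LD* and within HD* animals, since the groups do not overlap in it. In HD* animals Spearman's rho with intake was negative for all 7 members, from −0.65 to −0.79, and strongest for OPRD1 (rho = −0.79, exact permutation p = 0.0244) and PDYN (rho = −0.74, exact permutation p = 0.0401), but 0 of 14 tests passed after adjustment (adjusted p = 0.175 for both). Pearson's r was smaller in size, from −0.33 to −0.64 (exact permutation, adjusted p from 0.413 to 0.608), and from −0.62 to −0.83 without the 2 animals farthest from the median intake, and the categories HD and VHD were themselves drawn from drinking, so this is not a test apart from theirs. In LD* animals rho ran from −0.63 for PNOC to −0.20 for OPRM1 (exact permutation p from 0.0998 to 0.630). Pearson's r there ran from −0.55 for PNOC to 0.14 for OPRM1, but without the 2 animals farthest from the median intake it was −0.046 for PNOC and from −0.62 for PENK to −0.35 for OPRL1 in the other 6 members, with OPRM1 and OPRD1 turning negative.

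Genes whose levels followed each member most closely over the 24 animals were sought among 9191 other genes that averaged 10 TPM or more. For PENK they were CPNE5, SLC25A14 and DDX54 (Spearman's rho 0.94 for each), and for PDYN they were DRD3, the dopamine D3 receptor (0.96), HMP19 (0.96) and ACTR3B (0.95). OPRK1 was most like MEIS2, a striatal transcription factor, CNKSR2 and ASPHD2 (0.97 for each), and OPRL1 most like CANT1 (0.98), LHFPL4 (0.97) and DLG3 (0.97), the last a synaptic scaffold. OPRM1 was nearest to OSBPL8, GABRA4, a GABA-A receptor subunit, and SPRED1 (0.92, 0.92 and 0.91), and OPRD1 was close to STXBP5L and KCNA2, a potassium channel (0.89 for each). PNOC had no such close companions, its nearest being TUBB (0.80), HNRNPAB (0.79) and CHP1 (0.79). These are the highest values among all these genes and are given without a test.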

How the data were processed

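Total RNA of the NAcc core of 24 animals had been sequenced as polyA-selected libraries. Reads had been aligned by the authors to the MacaM assembly with STAR 2.5.2b, allowing 2 mismatches and unique hits, and counted on genes with HTSeq 0.6.1p1. The deposited table is named by the authors as normalized counts, but its columns add up to 999998 to 1000000, as TPM do, and it was therefore treated as TPM, a unit the study's methods also use. The step from counts to these values is not given in the sources used here, and comparisons of level between genes rest on that reading. Neither counts nor the depth of each animal were used here, so count models could not be fitted and counting error is unknown.

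Log2(TPM + 1) was tested for the 13637 genes that averaged 1 TPM or more with limma 3.58.1 in R 4.3.3 (empirical Bayes with a trend), with Benjamini-Hochberg adjustment over all genes and a threshold of 0.05. All p-values called adjusted for single genes are limma's. The 3 groups shared 1 model, VHD against HD used the 8 HD* animals, and cohort was tested with group in the model. Groups come from the labels. Each animal gave 1 sample. Ratios and correlations used exact permutations or 100000 resamples in Python 3.11.15 (numpy 2.4.6, scipy 1.17.1, pandas 2.3.3) with matplotlib 3.10.9. Scripts were tested on simulated data. The alternatives were a pseudocount of 0.1, other filters, TMM rescaling (trimming 30% of M and 5% of A), covariates, subsets of cohorts and each animal left out.

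The members and gene lists were chosen with earlier results of these data known. Named beside the members are the 3 nearest genes of each, the genes of each list that passed and, where none passed, the gene of each pathway list with the smallest p, and the first marker of each marker list, with POMC described after its values were seen. Not every gene that meets these rules is reported here. CTSL, GRK2, GRK3 and PECAM1 were not matched under these symbols, and GRK2 and GRK3 were taken as ADRBK1 and ADRBK2. Of the symbols, 27 read as dates and were kept as they stood. Sequences and coordinates were not used here.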

Additional observations from a re-analysis of the deposited data

How the results depend on the processing

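No member and no other gene passed in HD* against controls, LD* against controls or HD* against LD* under any alternative, and signs of small differences were not stable. For HD* against controls they turned with cohorts 5 and 7a alone (PDYN −0.013, OPRK1 −0.17), TMM rescaling (OPRM1 0.061), cohort as a covariate (OPRK1 −0.12, OPRL1 −0.076), the marker level as a covariate (OPRK1 −0.083, OPRL1 −0.054) and without animals at 10 TPM or more of SLC17A7, a subset chosen after seeing the data (OPRL1 −0.13). With 1 animal left out, ranges crossing 0 were −0.18 to 0.086 for OPRM1, −0.032 to 0.37 for OPRK1 (negative without control 6) and −0.054 to 0.17 for OPRL1. For LD* against controls they turned with cohort (OPRD1 0.13) and the marker level (OPRM1 −0.053), and the ranges were −0.016 to 0.58 for PENK (negative without control 6), −0.20 to 0.040 for PNOC, −0.085 to 0.19 for OPRM1 and −0.25 to 0.0072 for OPRD1. For HD* against LD* they turned with cohort (PENK −0.31) and without the SLC17A7 animals (PENK −0.25, OPRD1 0.069), and the ranges were −0.24 to 0.052 for OPRM1, −0.20 to 0.031 for OPRD1 and −0.31 to 0.032 for OPRK1. The cause was not tested.

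For VHD against HD, 1997 genes and 5 members were called. With 1 animal left out there were 476 (without HD* 6) to 4651 genes (without HD* 4), 1094, 681, 607 and 723 without HD* 2, 3, 5 and 7, and 3 to 6 members. PENK, OPRK1 and OPRL1 kept their calls throughout, whereas PDYN (−1.02 to −0.66) and OPRD1 (−1.001 to −0.73) lost theirs without any 1 of HD* 2, 3, 5, 6 or 7, and OPRM1 (−1.01 to −0.67) gained one without HD* 1 or HD* 4. TMM rescaling left 3 members, without PENK (−0.86) and PDYN (−0.62), and cohort as a covariate added OPRM1 (−0.85). Without the SLC17A7 animals, which leaves 2 against 2, 867 genes were called, with OPRM1 (−1.22) and without OPRD1 (−0.99). The marker level as a covariate, chosen after seeing the data, left 0 genes and 0 members, at 0.089 for PENK, 0.061 for PDYN, 0.13 for OPRM1, −0.92 for OPRD1, −0.57 for OPRK1 and −0.85 for OPRL1.

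Leaving control 6 out of ratios and correlations was also chosen after seeing the data. Signs of ratios that had not passed turned for PDYN to PENK in HD* against controls (−0.052 without control 6, −0.14 in cohorts 5 and 7a) for OPRM1 to PENK in LD* against controls (0.047 without control 6) and for OPRM1 to PENK in VHD against HD (−0.17 with no pseudocount, chosen after seeing the data), and signs of correlations for PNOC with OPRD1 (−0.027 after TMM rescaling), with OPRK1 (0.16 without control 6) and with oligodendrocyte markers (−0.084 without control 6). The PENK to PDYN ratio correlated with the marker ratio at 0.47 without control 6. No paired analysis was possible because the labels give no animal a number shared between groups. The depth of each animal is unknown, and OPRM1 and OPRD1, at 2.89 and 2.08 TPM, were the lowest members and the most affected by the pseudocount, with −1.16 and −1.34 for VHD against HD at 0.1.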

Other observations

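In none of the 35 combinations of a member with a group or category did a single animal stand apart from the rest by Dixon's test at 95%, control 6 included. With 8 animals in a group and 4 in a category this test can miss such an animal, and control 8 was the next lowest control in PENK and PDYN. It therefore does not clear control 6, without which the PENK and PDYN differences between HD* animals and controls were 0.10 and 0.048. The HD* effect on each of the 7 members was tested for a difference between cohorts 5 and 7a, and none passed (limma interaction, 0 of 13637 genes called).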
